A study of Mus musculus with 6 samples.

Results

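The SLC1 family comprises the sodium-coupled carriers that bring glutamate, aspartate and small neutral amino acids into cells. Its 7 mouse genes, Slc1a1 to Slc1a7, were taken by symbol from the gene count tables of 6 libraries, in which they are 7 of 24214 listed genes. The family was chosen with its change between the same libraries in view. The members' levels, fold changes and counts past a threshold are therefore a description, not a test. Of the 7 members, 5 had enough counts to be fitted, among 13892 genes in all. Slc1a6 and Slc1a7 were not fitted and are described by their counts.

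Members of the family fall into 2 classes. Slc1a1, Slc1a2, Slc1a3, Slc1a6 and Slc1a7 encode high-affinity carriers of glutamate and aspartate, known best from brain and retina, where they clear glutamate released at synapses. Slc1a4 and Slc1a5 encode exchangers of neutral amino acids such as alanine, serine, cysteine and threonine, and Slc1a5 also carries glutamine, which many tumour cells take up in quantity. Both classes draw on the sodium gradient across the plasma membrane, which the sodium pump maintains.

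The libraries were made from total RNA of stable transfectants of a mouse lung adenocarcinoma line (KP lung cancer cells, strain C57BL/6, in the labels). Of the 6 samples, 3 carried an empty vector (393P_vector) and 3 carried a Zeb1 expression construct (393P_ZEB1). ZEB1 is a zinc-finger repressor of epithelial genes that drives epithelial-mesenchymal transition. The comparison asks which genes change when ZEB1 is raised in an epithelial tumour line. Both groups were obtained by drug selection and grown in RPMI-1640 with serum. The promoter driving Zeb1, the species of its cDNA, and whether each group was 1 clone or a pool are not given in the sources used here. The sources also do not say whether the 3 samples of a group were separate cultures, so p-values measure only the spread between these samples.

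Zeb1 itself stood at 21.2, 22.01 and 21.4 CPM (counts per 1000000 of the effective library size) in 393P_vector and at 54.9, 48.9 and 51.3 CPM in 393P_ZEB1 (log2 fold change 1.26, SE 0.10, adjusted p = 6.06e-05 in edgeR), and these counts may include reads from the construct. Libraries held 54442450 to 79158012 counts, and 3 counts corresponded to 0.0361 to 0.0561 CPM, a limit of counting error only. Vector replicate 3 stood apart from its group. Between 8.71% and 9.6% of fitted genes differed by 2-fold or more between it and the other vector samples, against 2.41% between those 2 and 3.11% to 3.43% among the ZEB1 samples. Epithelial markers fell in 5 of 6 cases, Cdh1 (E-cadherin) from 162 ± 61.2 to 9.51 ± 0.718 CPM (SD, n = 3 per group) with an adjusted p of 2.28e-05 in edgeR, and mesenchymal markers rose in 5 of 5, where 19.3% of all fitted genes fell and 18.3% rose. The lung epithelial markers Nkx2-1, Sftpc, Sftpb and Napsa summed to at most 0.187 CPM in any library, so none of the 4 marked the labelled tissue.

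Slc1a3 (chromosome 15, 8634124-8710807, minus strand, GRCm38) was the member with the largest difference. It encodes EAAT1, also called GLAST, the main glutamate carrier of cerebellar and retinal glia. The vector libraries held 9, 11 and 14 counts for it, and the ZEB1 libraries 1417, 1352 and 1346 counts. On the CPM scale these were 0.159, 0.187 and 0.169 against 26.5, 24.3 and 22.1. Every ZEB1 sample lay far above every vector sample, and the spread within each group was small beside the gap. The group means were 0.172 ± 0.0142 and 24.3 ± 2.22 CPM (SD, n = 3 each), a 142-fold ratio and a fitted log2 fold change of 7.13 (SE 0.19). Slc1a3 ranked 5 of 13892 fitted genes by increase. Fewer cells carrying an mRNA and less of it per cell cannot be told apart in such bulk RNA. None of its 10 exons had more than 10 reads in any vector sample, whereas 9 of 10 did in every ZEB1 sample, so the reads were not confined to 1 exon. The log2 fold change ran from 7.07 to 7.21 as each library in turn was left out, and was 7.11 without vector replicate 3.

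Promoters of the 2 members that were higher in 393P_ZEB1 are shown because ZEB1 is known to bind the letters CACCT. Sequences are from RefSeq on GRCm38.p6, span 250 bases before to 50 bases after the start site, and are written 5′ to 3′ on the gene's strand. CACCT, or AGGTG where it lies on the opposite strand, is in capitals. Both windows start from the same base as the gene in the count tables. The Slc1a3 window is chr15:8710758-8711057 and the Slc1a4 window chr11:20332664-20332963.
Slc1a3: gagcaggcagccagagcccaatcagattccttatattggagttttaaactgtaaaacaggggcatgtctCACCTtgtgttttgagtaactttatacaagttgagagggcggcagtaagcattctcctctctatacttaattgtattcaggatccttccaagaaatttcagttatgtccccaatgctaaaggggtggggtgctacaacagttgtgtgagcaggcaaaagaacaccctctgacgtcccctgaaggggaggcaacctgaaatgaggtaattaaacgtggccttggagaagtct
Slc1a4: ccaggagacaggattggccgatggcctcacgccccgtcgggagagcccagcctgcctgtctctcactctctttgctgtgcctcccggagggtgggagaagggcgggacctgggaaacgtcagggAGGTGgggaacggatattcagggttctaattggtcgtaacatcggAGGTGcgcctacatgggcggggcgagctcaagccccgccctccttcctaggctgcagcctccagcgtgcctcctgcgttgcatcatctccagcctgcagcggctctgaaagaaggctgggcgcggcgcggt
The Slc1a3 window held 1 match at -181 from the start site, on the gene's own strand, and the Slc1a4 window 2 matches at -126 and -81, both on the opposite strand. Of the 6 members with a window in the RefSeq table, 5 held CACCT on either strand and 0 held the longer CACCTG. The count includes a Slc1a2 window whose start site, 102706438, lies inside the gene as the count tables delimit it and away from their start at 102658683, so that window is not shown. Outside the 2 windows shown, Slc1a7 held 4 matches, Slc1a1 and Slc1a2 held 1 each, and Slc1a6 held 0. Slc1a5 had no window. Among 32851 promoter windows of 27025 genes, 51.9% held CACCT and 20.2% held CACCTG, so CACCT was common in windows of this length.

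The exchangers carried most of the family's mRNA in both groups. Slc1a4 (chromosome 11, 20302180-20332713, minus strand) encodes ASCT1, which exchanges serine, alanine, cysteine and threonine. Its counts were 3476, 3480 and 4753 in 393P_vector and 3960, 4387 and 4832 in 393P_ZEB1. As CPM these were 61.4, 59.2 and 57.2 against 74.0, 79.0 and 79.1, and the groups did not overlap. The means of 59.3 ± 2.10 and 77.4 ± 2.91 CPM gave a 1.31-fold ratio and a log2 fold change of 0.39 (SE 0.10). All 8 of its exons had more than 10 reads in every sample. The difference was modest in size, and its log2 fold change ran from 0.36 to 0.42 as each library was left out.

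Slc1a5 (chromosome 7, 16781346-16798274, plus strand) encodes ASCT2, the exchanger that also takes up glutamine. Its levels were 42.9, 40.4 and 46.5 CPM in 393P_vector and 38.2, 54.5 and 52.3 CPM in 393P_ZEB1. The groups overlapped, because ZEB1 replicate 1 was the lowest of all 6 samples and the other ZEB1 samples were the highest. The log2 fold change was 0.16 (SE 0.15), from means of 43.3 ± 3.04 and 48.3 ± 8.86 CPM. Leaving out ZEB1 replicate 1 gave 0.31, and leaving out the others gave values down to 0.07. This member therefore differed by no more than its replicates did.

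Slc1a2 (chromosome 2, 102658683-102790784, plus strand) encodes EAAT2, also called GLT-1, the main glutamate carrier of forebrain astrocytes. It was scarce in these cells and scarcer still in 393P_ZEB1. The vector libraries held 44, 37 and 62 counts and the ZEB1 libraries 25, 13 and 14 counts, or 0.777, 0.629 and 0.746 CPM against 0.467, 0.234 and 0.229 CPM. Every ZEB1 sample lay below every vector sample, with ZEB1 replicate 1 nearest to them. The means of 0.718 ± 0.0783 and 0.310 ± 0.136 CPM gave a vector level 2.31-fold above the ZEB1 level and a log2 fold change of -1.22 (SE 0.33). Only 1 of 13 exons had more than 10 reads in each of the 6 samples. Its log2 fold change ran from -1.62 to -1.02 as each library was left out.

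Slc1a1 (chromosome 19, 28835166-28913960, plus strand) encodes EAAT3, the carrier of neurons and of the kidney tubule. It had 9, 9 and 21 counts in 393P_vector and 8, 12 and 15 in 393P_ZEB1, and the groups overlapped. The means were 0.188 ± 0.0560 and 0.204 ± 0.0492 CPM, with a log2 fold change of 0.09 (SE 0.37). Slc1a6 (chromosome 10, 78780496-78814825, plus strand), the EAAT4 gene of cerebellar Purkinje cells, had 2, 3 and 3 counts in 393P_vector and 4, 2 and 0 in 393P_ZEB1. The 0 in ZEB1 replicate 3 allows up to 0.0491 CPM. Slc1a7 (chromosome 4, 107968334-108013532, plus strand), the EAAT5 gene of the retina, had 5, 4 and 4 counts against 4, 3 and 4. No exon of these 3 genes had more than 10 reads in any sample, and a difference between the groups was not detectable at this depth.

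Of the 5 fitted members, 3 passed an adjusted p of 0.05 in edgeR, 2 higher and 1 lower in 393P_ZEB1, where 37.6% of all fitted genes passed, 18.3% higher and 19.3% lower. The count, and which members stayed in it as libraries were left out, are a description, since the family was chosen on this contrast. Slc1a1 and Slc1a5 lay on the other side of the threshold. Without ZEB1 replicate 2, or without ZEB1 replicate 3, the count was 1, because Slc1a2 and Slc1a4 no longer passed. Without vector replicate 1 it was 2, because Slc1a2 did not pass. Slc1a3 passed with any 1 library left out, and the count was 3 without vector replicate 3.

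**Figure D1:**
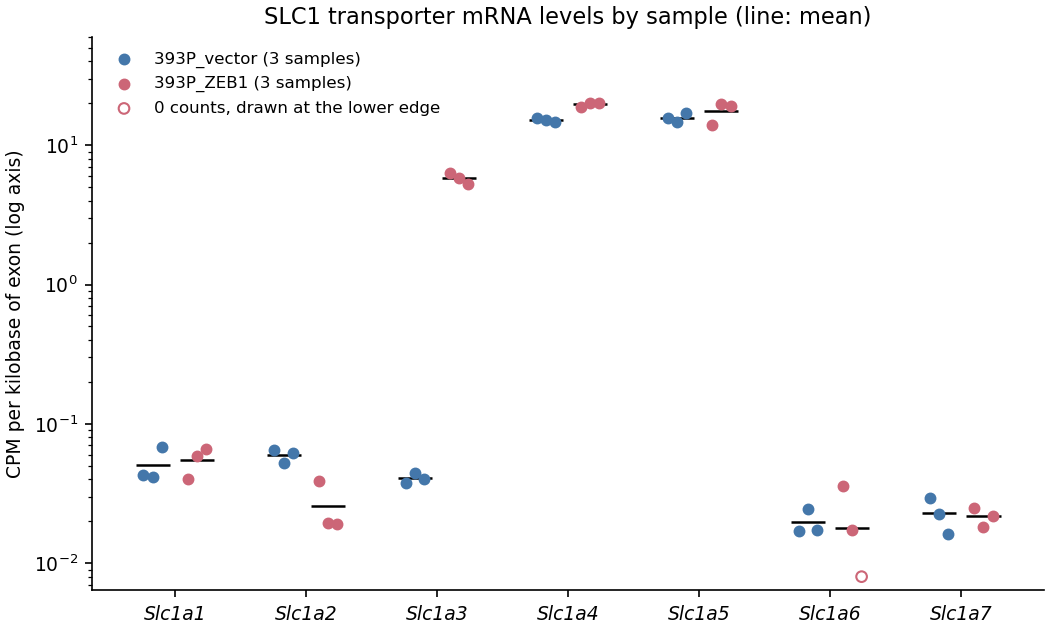
Level of each SLC1 member in each of the 6 samples, as CPM per kilobase of exon on a log axis, with a line at each group mean (n = 3). Slc1a3 moved from a mean of 0.0409 to 5.79, Slc1a4 and Slc1a5 lay between 13.9 and 20.2 in all samples, and 1 sample of Slc1a6 with 0 counts is drawn at the lower edge.

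**Figure D2:**
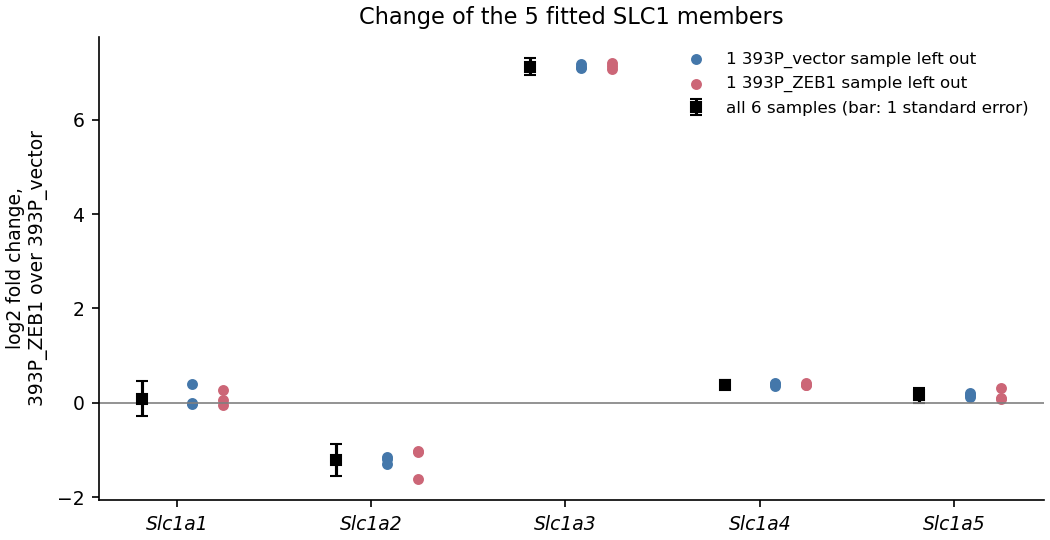
Fitted log2 fold change of the 5 fitted members, 393P_ZEB1 over 393P_vector, with 1 standard error, beside the value with each library left out in turn. Slc1a3 stayed between 7.07 and 7.21, Slc1a4 between 0.36 and 0.42, and Slc1a2 between -1.62 and -1.02.

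Levels of different members were compared as CPM per kilobase of exon, which corrects for gene length. In 393P_vector, Slc1a5 (15.7 ± 1.11) and Slc1a4 (15.1 ± 0.536) headed the order, and their sample values overlapped. The glutamate carriers followed far below, Slc1a2 at 0.0595 ± 0.00649, Slc1a1 at 0.0509 ± 0.0151 and Slc1a3 at 0.0409 ± 0.00339 CPM per kilobase. Of these, Slc1a1 overlapped both Slc1a2 and Slc1a3. Slc1a7 at 0.0228 ± 0.00671 and Slc1a6 at 0.0196 ± 0.00425 CPM per kilobase came last and overlapped each other. The vector cells thus held mRNA for both neutral amino acid exchangers and very little for any glutamate carrier.

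In 393P_ZEB1, Slc1a4 (19.8 ± 0.744 CPM per kilobase) and Slc1a5 (17.6 ± 3.22) again led and overlapped. Slc1a3 now came next at 5.79 ± 0.529 CPM per kilobase, with samples at 6.31, 5.80 and 5.25, apart from both neighbours in the order. Slc1a1 (0.0551 ± 0.0133), Slc1a2 (0.0257 ± 0.0113), Slc1a7 (0.0216 ± 0.00347) and Slc1a6 (0.0178 ± 0.0180) followed on the same scale. Slc1a1 and Slc1a2 did not overlap in this group, and Slc1a2, Slc1a7 and Slc1a6 did. Among all fitted genes, 2.52% lay below Slc1a3 by level per kilobase in 393P_vector and 41.7% in 393P_ZEB1. For Slc1a4 the shares were 62.7% and 69.4%. Among fitted genes Slc1a3 thus went from near the bottom to mid-range, while the exchangers sat above most throughout. The 10322 genes not fitted, which had low counts, were left out of these shares. Slc1a3 held 9, 11 and 14 counts in 393P_vector and met the filter through its ZEB1 counts. Its place near the bottom in 393P_vector therefore follows in part from the filter.

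The summed family level was 31.5, 30.0 and 31.7 CPM per kilobase in 393P_vector and 39.2, 45.9 and 44.6 in 393P_ZEB1, a ratio of means of 1.39 with no overlap. Without Slc1a3 the sums were 31.0 ± 0.933 and 37.5 ± 3.94 CPM per kilobase, a ratio of 1.21. Slc1a3 made up 0.132% of the family level in 393P_vector and 13.5% ± 2.28 in 393P_ZEB1. The share of Slc1a5 went from 50.6% ± 2.33 to 40.4% ± 4.36, and that of Slc1a4 from 48.7% ± 2.34 to 45.8% ± 2.16. The ratio of Slc1a4 to Slc1a5 per kilobase was 0.965 ± 0.0884 and 1.15 ± 0.187, values whose spreads met.

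**Figure D3:**
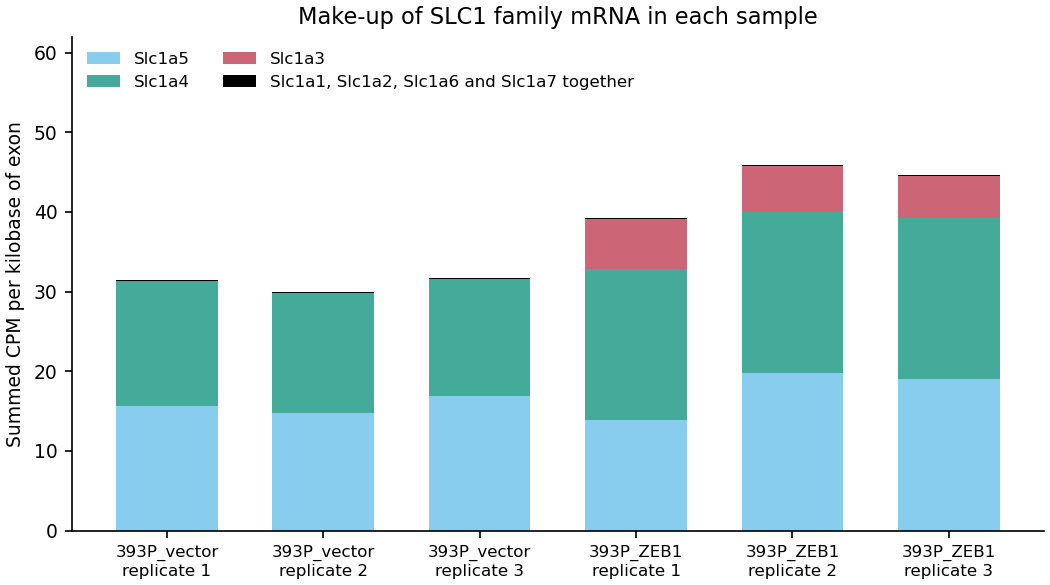
Summed SLC1 level in each of the 6 samples, in CPM per kilobase of exon, stacked by member. Slc1a4 and Slc1a5 fill nearly all of each vector bar, Slc1a3 adds 5.25 to 6.31 to each ZEB1 bar, and the remaining 4 members together are too small to see.

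Genes beside each member were read to see whether its change was shared locally. Around Slc1a3, the 3 nearest fitted genes on each side lay within 474 kb and had log2 fold changes of 0.06 to 0.65. Nadkd1 (0.54, adjusted p = 0.00612 in edgeR) and Lmbrd2 (0.65, adjusted p = 0.0283) rose, and Nup155 (0.31), Nipbl (0.27), 2410089E03Rik (0.06) and Skp2 (0.19) did not pass. Over the whole of chromosome 15 the other 573 fitted genes had a median log2 fold change of -0.33, with 69 higher and 214 lower and 0 above Slc1a3. Slc1a3 thus lay above each of these neighbours and above every other fitted gene of its chromosome. Among the other fitted genes whose start sites lay within 2 Mb, the largest log2 fold change was 2.39, for Lifr, a cytokine receptor gene singled out after its value was seen.

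Around Slc1a4, the same kind of neighbours moved as far as Slc1a4 did. Actr2 (log2 fold change 0.53), Rab1 (0.45), Cep68 (0.54), Sertad2 (0.77) and Aftph (0.45) rose, with adjusted p from 0.00235 to 0.0263 in edgeR, and 1110067D22Rik (0.27) did not pass. Chromosome 11 as a whole stood higher, with a median log2 fold change of 0.26 over 1155 other fitted genes, 338 of them higher and 116 lower. Slc1a4 lay 0.12 above that median, and 445 of those genes lay above it. The part of this chromosome-wide shift in the Slc1a4 difference was not tested.

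The other members had few neighbours that passed. Around Slc1a2 none of Ldlrad3, Trim44, Fjx1, Cd44, Pdhx and Apip passed in edgeR (log2 fold changes -0.46 to 0.24), and the chromosome 2 median was -0.05. Around Slc1a5 none of Tmem160, Grlf1, Ap2s1, Strn4 and Prkd2 passed (-0.15 to 0.22), with a chromosome 7 median of -0.01. For the 6 neighbours of Slc1a2 the count was also 0 at an unadjusted p below 0.05 and in DESeq2. Around Slc1a1, Glis3 rose (0.78, adjusted p = 0.00441 in edgeR) and Cdc37l1 fell (-0.43, adjusted p = 0.0241), while C030016D13Rik, Rfx3, Ppapdc2 and Ak3 did not pass. Reads of overlapping genes could touch 2 members, since exons of Slc1a1 overlap the opposite-strand 4430402I18Rik and exons of Slc1a2 the antisense Gm13872 in GENCODE M21, and whether strand was used in counting is not given in the sources used here.

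**Figure D4:**
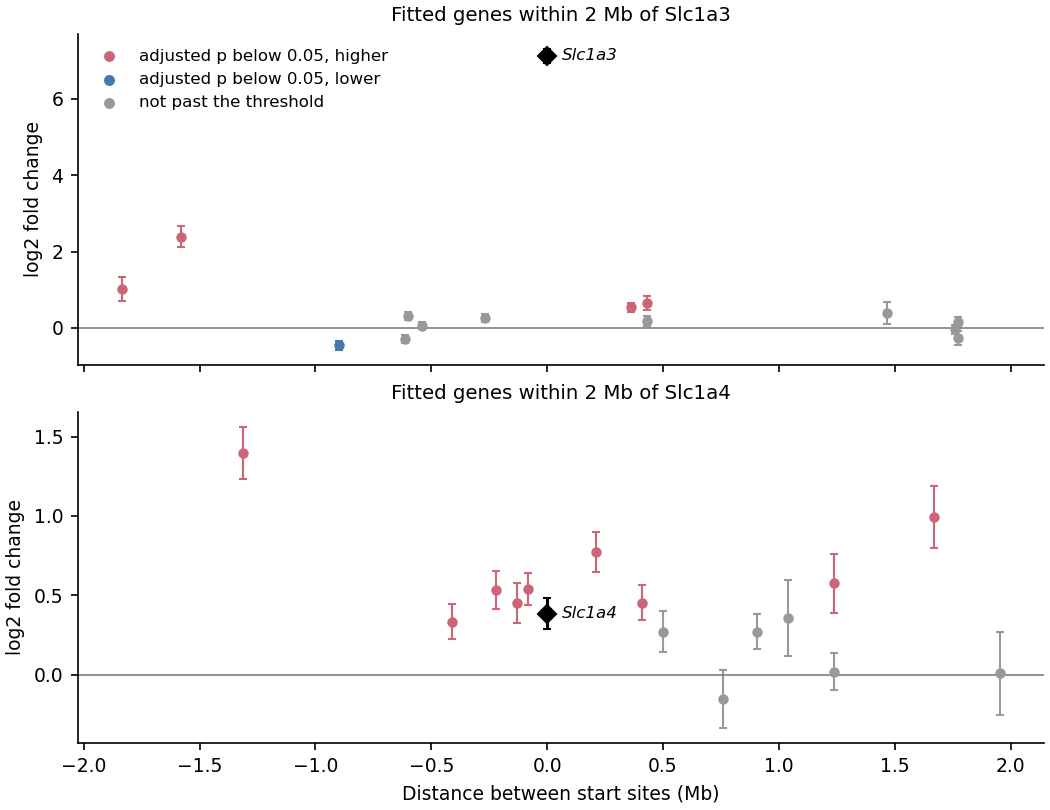
Fitted log2 fold change with 1 standard error, 393P_ZEB1 over 393P_vector, of each fitted gene within 2 Mb of Slc1a3 (upper panel) and Slc1a4 (lower panel), by distance between start sites. Slc1a3 at 7.13 stands far above its neighbours, of which the highest is at 2.39, while Slc1a4 at 0.39 lies among neighbours with a median of 0.45.

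Enzymes that make or use glutamate and glutamine included genes that rose and genes that fell. This list and those that follow were chosen with earlier results of these data known, so their shares are a description. Of 16 fitted, 3 rose, 3 fell and 10 did not pass, 37.5% against 37.6% of all fitted genes, with a median log2 fold change of -0.11 against -0.02 for all genes. Gclc, the catalytic subunit that joins glutamate to cysteine in glutathione synthesis, rose from 60.9 ± 1.71 to 178 ± 16.9 CPM (log2 fold change 1.55, SE 0.11, adjusted p = 2.31e-05 in edgeR). Pycr1, which completes proline synthesis, rose by 1.27 and Oat, which links ornithine to glutamate, by 0.76 on the log2 scale (adjusted p = 0.000908 and 0.00158 in edgeR). Pycr1 lies on chromosome 11, where the median log2 fold change was 0.26, and the part of that shift in its rise was not tested. Glul, glutamine synthetase, fell from 157 ± 2.62 to 93.2 ± 3.28 CPM (-0.75, SE 0.09, adjusted p = 0.000457 in edgeR). Prodh, the first enzyme of proline breakdown, fell from 21.2 ± 4.59 to 10.0 ± 1.13 CPM (adjusted p = 0.0034 in edgeR), and the scarce Gad2, a glutamate decarboxylase, from 0.417 ± 0.122 to 0.0947 ± 0.0157 CPM (adjusted p = 0.00318). The abundant Aldh18a1, an enzyme of proline synthesis, did not pass (log2 fold change -0.12, adjusted p = 0.422 in edgeR). Without vector replicate 3 the count of genes past the threshold was 10 instead of 6, with 3 higher and 7 lower, and in DESeq2 it was 9, with 3 higher and 6 lower.

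Serine and glycine enzymes, which make and use substrates of Slc1a4 and Slc1a5, included 4 genes that rose among 6 fitted, 66.7%, where 18.3% of all fitted genes rose. The median log2 fold change was 0.46. The list was chosen with earlier results of these data known, so the share of 66.7% is a description. In edgeR 0 fell, and 0 fell at an unadjusted p below 0.05 or in DESeq2. Shmt1, which converts serine to glycine in the cytosol, rose from 52.3 ± 4.32 to 98.6 ± 3.52 CPM (0.92, SE 0.10, adjusted p = 0.000359 in edgeR). Shmt1 lies on chromosome 11, where the median log2 fold change was 0.26, and the part of that shift in its rise was not tested. The serine synthesis enzymes Psph (0.68, adjusted p = 0.00394 in edgeR), Phgdh (0.53, 0.0353) and Psat1 (0.39, 0.024) also rose. Shmt2, the mitochondrial form, had a log2 fold change of 0.07 and Srr, serine racemase, 0.19, and neither passed. Without ZEB1 replicate 2, or without ZEB1 replicate 3, the count past the threshold was 2, since Phgdh and Psat1 did not pass. Phgdh also did not pass without ZEB1 replicate 1, and Psat1 did not without vector replicate 1 or 2.

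Other carriers of glutamate included the vesicular carriers, the cystine-glutamate exchanger and the mitochondrial aspartate-glutamate carriers. Of 7 fitted, 3 rose and 1 fell, 57.1% called against 37.6% of all fitted genes, with a median log2 fold change of -0.08. Slc17a8, the vesicular carrier VGLUT3, rose from 7.66 ± 0.173 to 29.7 ± 1.16 CPM (1.95, SE 0.11, adjusted p = 9.4e-06 in edgeR), and the much scarcer Slc17a6, VGLUT2, from 0.201 ± 0.0412 to 1.30 ± 0.193 CPM (2.70, SE 0.27, adjusted p = 0.000172). Slc7a11, the exchanger subunit that exports glutamate for cystine, rose from 39.8 ± 6.93 to 66.6 ± 6.999 CPM (0.74, SE 0.15, adjusted p = 0.00713 in edgeR). Its partner Slc3a2, at 236 and 223 CPM, did not pass. Slc25a13, a mitochondrial carrier, fell from 49.5 ± 10.6 to 28.8 ± 2.26 CPM (adjusted p = 0.00795 in edgeR), while the related Slc25a12 did not pass (-0.12, adjusted p = 0.409). The count of 4 held with each library left out in turn.

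Receptors that sense extracellular glutamate were mostly near the detection limit. Of 26 listed, 24 stayed below 1 CPM in every sample and 9 were fitted, of which 0 rose and 1 fell in edgeR (1 rose at an unadjusted p below 0.05 and 0 in DESeq2), 11.1% called against 37.6% of all fitted genes. Grik5, a kainate receptor subunit, stood at 17, 16.1 and 7.72 CPM in 393P_vector and averaged 1.23 ± 0.310 CPM in 393P_ZEB1 (log2 fold change -3.47, SE 0.35, adjusted p = 0.000205 in edgeR). Vector replicate 3 was the lowest of its group for this gene, and the groups still did not overlap. Grin2d and Grin2b, NMDA receptor subunits, had log2 fold changes of 0.66 and 0.39 and did not pass (adjusted p = 0.0586 and 0.382 in edgeR).

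Proteins known to bind SLC1 carriers were followed through 4 fitted genes, of which 0 rose and 1 fell in edgeR (0 rose at an unadjusted p below 0.05 or in DESeq2), where 19.3% of all fitted genes fell. Ajuba (Jub in the tables), a LIM protein that binds EAAT2, fell from 148 ± 5.69 to 81.9 ± 3.73 CPM (-0.86, SE 0.09, adjusted p = 0.000293 in edgeR). Slc9a3r1, a PDZ scaffold, had a log2 fold change of 0.16, and Arl6ip5, which binds EAAT3, one of -0.42, and neither passed (adjusted p = 0.44 and 0.0822 in edgeR). Without vector replicate 3 the count past the threshold was 2, with Arl6ip5 at -0.21 (adjusted p = 0.0418).

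Genes of the amino acid stress response, which is known to raise transcription of amino acid carriers, were mostly not called. Of 8 fitted, 1 rose, 1 fell and 6 did not pass, 25.0% called against 37.6% of all fitted genes, with a median log2 fold change of -0.19. Trib3 rose from 37.3 ± 10.7 to 60.7 ± 3.73 CPM (0.70, SE 0.21, adjusted p = 0.0335 in edgeR), and Ddit4 fell from 26.8 ± 3.10 to 13.1 ± 2.47 CPM (-1.03, SE 0.17, adjusted p = 0.00272). Atf4, the factor at the centre of the response, had a log2 fold change of -0.19 and Eif2ak4, the kinase that senses uncharged tRNA, 0.07, and neither passed. Trib3 did not pass without any 1 of the ZEB1 samples (adjusted p up to 0.114 in edgeR), and the count was then 1 without ZEB1 replicate 1 or 3. Without vector replicate 3 it was 5, with 1 higher (Trib3) and 4 lower (Ddit4, Atf4, Ddit3 and Chac1), Atf4 at -0.30 (adjusted p = 0.00573 in edgeR). Atf4 lies on chromosome 15, where the median log2 fold change over all samples was -0.33. The part of that shift in the Atf4 values was not tested.

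**Figure D5:**
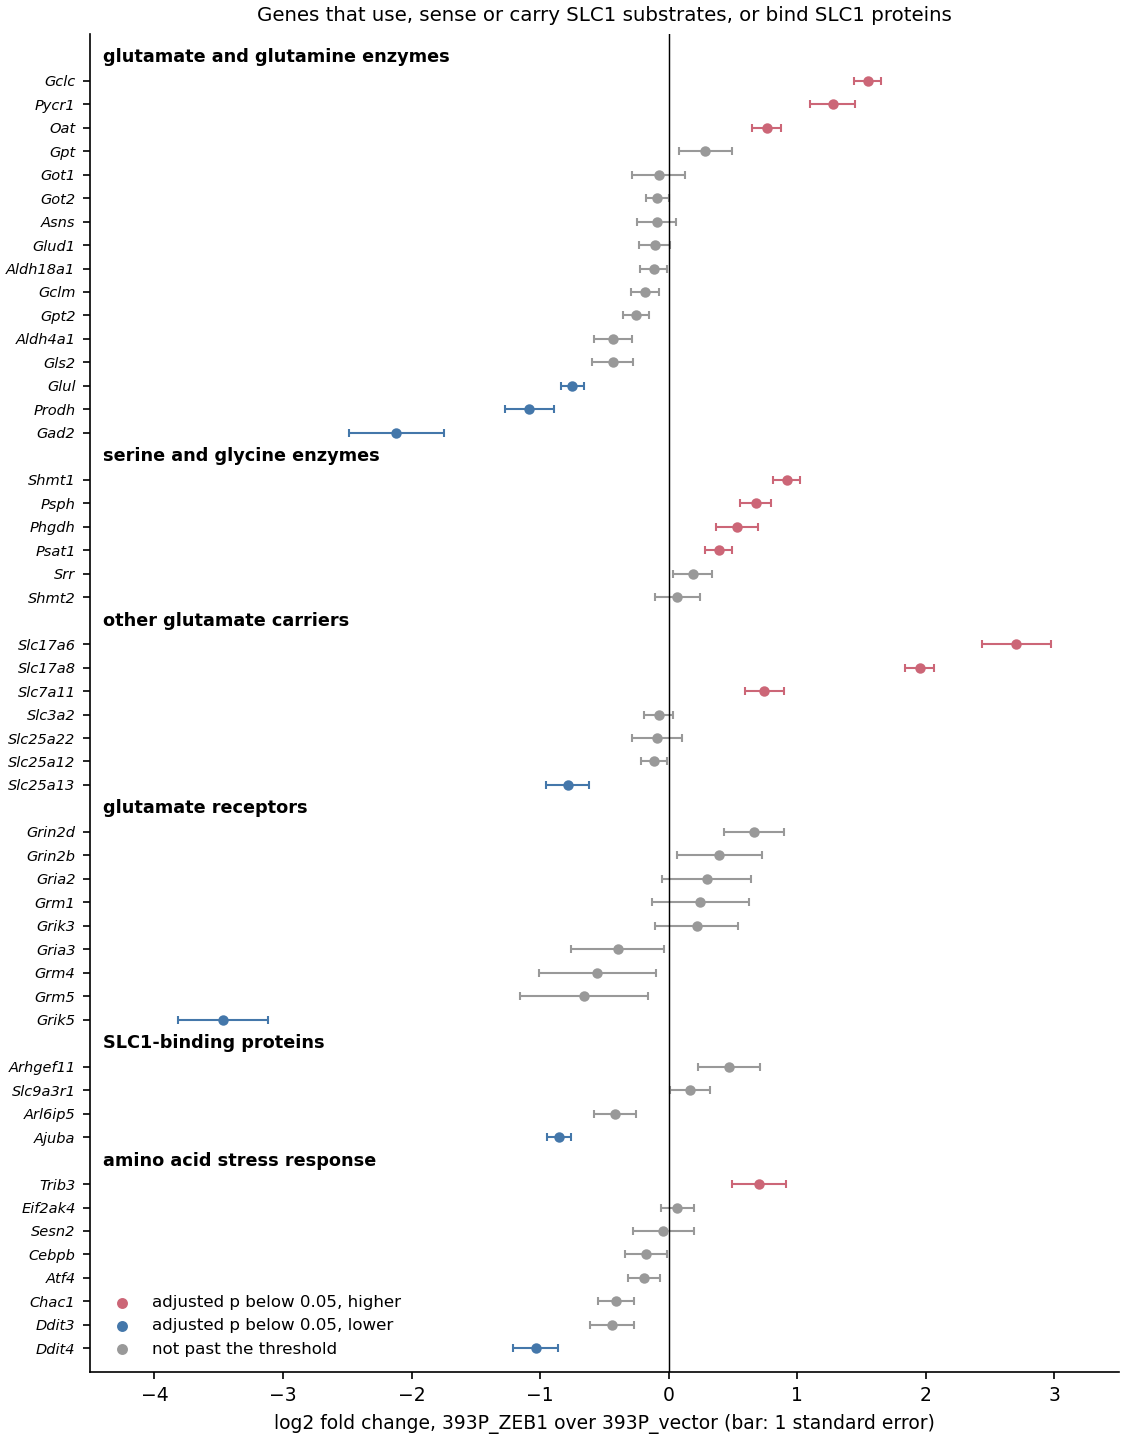
Fitted log2 fold change with 1 standard error, 393P_ZEB1 over 393P_vector, of every fitted gene in the 6 pathway lists, coloured by whether it passed an adjusted p of 0.05 and in which direction. The serine and glycine enzymes have a median of 0.46, the glutamate and glutamine enzymes have a median of -0.11, and Grik5 is the lowest point at -3.47.

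Markers of cells that express these carriers in tissue were read beside Slc1a3. Astrocyte markers Gfap, Aqp4, Aldh1l1, Gjb6 and S100b were all below 1 CPM in every sample, and their sum was 0.879 to 0.954 CPM in 393P_vector and 0.475 to 0.617 CPM in 393P_ZEB1. Gfap, the defining astrocyte marker, averaged 0.124 ± 0.0502 and 0.143 ± 0.0557 CPM, and Aldh1l1 fell from 0.618 to 0.0866 CPM (adjusted p = 0.00199 in edgeR). Summed fibroblast markers went from between 2.30 and 3.15 CPM to between 1.35 and 1.66 CPM, macrophage markers from 1.97 to 4.33 CPM to 1.37 to 1.62 CPM, and endothelial markers from 2.26 to 2.46 CPM to 0.630 to 0.868 CPM. Each of these 4 sums was lower in every ZEB1 sample than in any vector sample, but single markers within them differed in direction. The astrocyte sum was lower through Aldh1l1, while Aqp4 (0.0878 to 0.137 CPM), S100b (0.0738 to 0.141 CPM) and Gjb6 (0.0196 to 0.0425 CPM) had, like Gfap, the higher mean in 393P_ZEB1 with groups that overlapped, and none of the 4 was fitted. Among fibroblast markers Pdgfra fell (log2 fold change -2.01, adjusted p = 0.000459 in edgeR) and Pdgfrb rose, from 0.206 ± 0.0351 to 0.467 ± 0.0815 CPM (1.19, adjusted p = 0.0152). The scarce endothelial markers Cdh5 and Tek, not fitted, also had the higher mean in 393P_ZEB1. Mesenchymal markers moved the same way as Slc1a3, with Cdh2 (N-cadherin) at a log2 fold change of 2.04, and the part of any of these markers in the Slc1a3 difference was not tested.

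Genes with patterns most like that of Slc1a3 over the 6 samples were ranked by the root mean square difference of log2 CPM, each gene centred on its own mean. Emb, which encodes the cell-surface protein embigin, was nearest at 0.08, with 0.349 ± 0.0106 CPM in 393P_vector and 44.9 ± 1.35 CPM in 393P_ZEB1. Rasef, Calml4, Pilra and Msx1 followed at 0.26 to 0.32, all from below 0.2 CPM in 393P_vector to between 7.86 and 18.8 CPM in 393P_ZEB1. For Slc1a2 the nearest were Paqr5 at 0.14 (1.53 to 0.645 CPM), Flt3 at 0.16 (0.612 to 0.234 CPM), Ceacam1, Gng2 and Sema6a. These genes were picked for their likeness and carry no test.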

How the data were processed

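RNA-seq libraries from total RNA were sequenced on the SOLiD platform by the study. The deposited tables give, per gene, the count, the RPKM the authors derived from it, the number of exons and the number of exons with more than 10 reads. The aligner, counter, strand setting and annotation are not given in the sources used here, and the coordinates match GRCm38. Counts were the only values tested. RPKM was not tested. The library total implied by count, length and RPKM was computed for each gene above a low RPKM cut. Its median was between 99.1% and 99.3% of the summed counts. Groups came from the sample descriptions.

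Counts were fitted in edgeR 4.0.16 (R 4.3.3) with TMM scaling, the default expression filter (minimum count 10), the robust quasi-likelihood test and Benjamini-Hochberg adjustment over 13892 genes at 0.05. CPM used TMM-scaled library sizes. Pairs of replicates were compared after adding 0.01 CPM. The fit was also run on 3 simulated sets with 200 changed genes each, the same dispersion for every gene and no deviating sample. These settings differ from the data, so that run does not cover the effect of vector replicate 3. DESeq2 1.42.0 was an alternative. Figures used matplotlib 3.10.9.

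Members and gene lists were chosen with earlier results of these data known. Named were all members, every list gene past the threshold, up to 2 of the most abundant others per list, 3 fitted neighbours on each side of a member, and the 5 genes most alike for the 2 members with the largest change. Some listed genes, 1 whole list and some neighbours are not reported here.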

Additional observations from a re-analysis of the deposited data

How the results depend on the processing

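Of 162 recomputed values of 13 results, 146 stayed within a set tolerance, which was 1.5-fold for a count and the spread between replicates for a log2 fold change, and no value past the threshold changed sign. Slc1a1, which did not pass, ran from -0.057 to 0.39 on the log2 scale with each library left out in turn. With an adjusted p below 0.01, 3129 genes passed (1584 higher, 1545 lower) instead of 5218, with 1 SLC1 member (Slc1a3), 2 serine and glycine enzymes and 1 stress gene. With each library left out in turn the count of genes ran from 3645 to 7476 (the highest without vector replicate 3), of SLC1 members from 1 to 3, of glutamate and glutamine enzymes from 6 to 10, of serine and glycine enzymes from 2 to 4, of glutamate receptors from 1 to 2, of SLC1-binding proteins from 1 to 2 and of stress genes from 1 to 5. Without a filter on low counts 3 receptors passed. With at least 10 counts in every sample Slc1a3 could not be fitted because vector replicate 1 held 9 counts. The cause of these changes was otherwise not tested. The groups share replicate numbers, which are not stated to mark pairs and were not read as pairs. Deviations from the group means had r = 0.195, -0.126 and -0.028 between same-numbered samples. The samples numbered 1 correlated best with each other, and the rest with another number. With 3 samples in each group these values cannot decide whether the numbers mark pairs. With the replicate block 4436 genes passed, 2 SLC1 members among them, since Slc1a4 (log2 fold change 0.38) did not pass, and 3 serine and glycine enzymes, since Psat1 did not pass, while Slc1a3 stood at 7.12. Depth limits Slc1a1, Slc1a6 and Slc1a7, which had at most 21 counts in any library. It also limits the size of the Slc1a3 ratio, since the vector libraries held 9 to 14 counts. Slc1a2 held 13 to 62 counts and is limited as well.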
